A study of Homo sapiens with 6 samples.

Results

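Promoter peaks of β-catenin were taken as every deposited peak with its centre at most 1 kb (1000 bp) from the transcription start site (TSS) of the gene the authors assigned to it, wherever the peak lay relative to that gene. There were 685 of them among 3126 peaks in all. The RPMI list gave 143 of 260 peaks, the CHIR list 280 of 1053 and the CHIR+SB list 262 of 1813. The data are chromatin immunoprecipitation followed by sequencing (ChIP-seq) in SA121, an established human embryonic stem cell line grown in DEF-CS medium. Cells were held for 6 h in RPMI-1640 alone (mock, RPMI), in RPMI-1640 with CHIR99021 (CHIR), or in RPMI-1640 with CHIR99021 and SB431542 (CHIR+SB). CHIR99021 inhibits the kinase GSK3, and SB431542 blocks signalling by activin, Nodal and TGFβ at their type I receptors. Doses are not printed because the labels' unit for them could not be checked. Each condition had 1 library with a goat antibody to β-catenin and 1 with control goat IgG. Several parallel ChIPs were pooled into each library, so no replicate spread exists and no p-value is given for any difference between conditions. All intervals are exact 95% intervals and cover counting error only.

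β-catenin has no DNA-binding domain of its own. When GSK3 is inhibited it escapes degradation, enters the nucleus and is brought to chromatin by TCF/LEF factors, whose core word reads CTTTGA. Wnt target genes such as AXIN2 and SP5 carry such words near their start sites, while many other Wnt-responsive elements lie far from promoters. Promoters of constantly used genes lie in CpG islands and carry other elements. One of them is the palindrome TCTCGCGAGA, called here the CGCG element. It is bound by BANP when unmethylated, and motif collections also list it for ZBTB33 (Kaiso), a zinc finger protein known as a partner of p120-catenin. Whether any of these proteins was present at the peaks was not measured here.

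The word TCTCGCGA, the first 8 letters of the CGCG element, was common among the highest promoter peaks whose gene has a promoter sequence. The stretches below are 24 bases each from the 10 highest RPMI promoter peaks whose gene has a promoter sequence holding it. The stretches were thus chosen for holding the word. RBM39 and PRDX1, also among the highest RPMI peaks, had no promoter sequence to search, and ASXL1 had one without the word. Capitals mark the word, and each stretch is turned so that the word reads the same way. Sequences are from RefSeq, build GRCh38.p14.
CDK12: tactggacTCTCGCGAcgatttct
ERCC6L2: tttcgtTCTCGCGAgatcccaatg
RNF167: tggagcgcTCTCGCGAtagacaca
CDC5L: ccaataTCTCGCGAgacttgctat
RPL10A: ggccctgaTCTCGCGAtaatgctt
QRICH1: attgctccTCTCGCGAtaatcggg
RPL12: acgacagtTCTCGCGAtagccgcg
ARF3: gatgggTCTCGCGAgaactgccgc
PPP4R3B: ctcggcgcTCTCGCGAggaggggt
BTBD10: caccgtTCTCGCGAgaacgctgct

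The stretches lie on the plus strand at CDK12 chr17:39461438-39461461, ERCC6L2 chr9:95875593-95875616, RNF167 chr17:4940251-4940274, CDC5L chr6:44387648-44387671, QRICH1 chr3:49094080-49094103 and PPP4R3B chr2:55617727-55617750. On the minus strand they lie at RPL10A chr6:35468348-35468371, RPL12 chr9:127451446-127451469, ARF3 chr12:48957557-48957580 and BTBD10 chr11:13463306-13463329. The word's centre was 5 to 116 bases before the start site in these genes, all in the promoter upstream of the gene body.

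Longer context is given for 3 promoters where the word was counted more than once and for SP5, a Wnt target without it. In ERCC6L2 and HNRNPH3 the counted matches overlap within a single palindrome. Each run has the 200 bases before the RefSeq start site. Capitals mark TCTCGCGA on either strand in CDK12, ERCC6L2 and HNRNPH3, and CTTTGA on either strand in SP5. The locations are chr17:39461286-39461485 for CDK12, chr9:95875491-95875690 for ERCC6L2, chr10:68331864-68332063 for HNRNPH3 and chr2:170715137-170715336 for SP5, all on the plus strand of GRCh38.p14.
CDK12: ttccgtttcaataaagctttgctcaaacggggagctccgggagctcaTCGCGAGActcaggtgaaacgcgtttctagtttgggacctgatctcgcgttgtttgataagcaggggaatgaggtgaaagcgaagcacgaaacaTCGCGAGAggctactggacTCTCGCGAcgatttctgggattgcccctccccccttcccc
ERCC6L2: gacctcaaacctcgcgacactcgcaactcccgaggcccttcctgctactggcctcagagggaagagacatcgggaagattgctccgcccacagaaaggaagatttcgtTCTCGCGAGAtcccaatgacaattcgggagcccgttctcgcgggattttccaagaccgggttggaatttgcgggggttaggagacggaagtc
HNRNPH3: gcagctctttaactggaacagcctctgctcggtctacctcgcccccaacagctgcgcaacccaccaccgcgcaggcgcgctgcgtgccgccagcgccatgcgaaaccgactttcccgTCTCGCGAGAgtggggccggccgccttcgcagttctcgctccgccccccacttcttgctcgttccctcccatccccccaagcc
SP5: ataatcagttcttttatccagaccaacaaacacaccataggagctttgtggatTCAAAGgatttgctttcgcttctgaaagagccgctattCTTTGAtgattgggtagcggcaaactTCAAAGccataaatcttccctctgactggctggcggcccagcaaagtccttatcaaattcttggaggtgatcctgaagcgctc

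CDK12, a kinase of transcribing RNA polymerase II, held the word at 3 places, starting 153, 59 and 40 bases before its start site. In ERCC6L2, a DNA repair gene of the SNF2 family, and in HNRNPH3, an RNA-binding splicing protein, both occurrences overlap and form the full 10-letter palindrome. The SP5 window held CTTTGA 3 times, starting 147, 109 and 83 bases before the start site, and did not hold TCTCGCGA. A match in these letters is a description of the sequence and not evidence of a bound factor.

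A promoter window of 300 bases, 250 before to 50 after a RefSeq start site, was looked up by gene symbol for every protein-coding gene with a promoter peak. Windows were found for 115 of 133 such genes in RPMI (86.5%), 211 of 252 in CHIR (83.7%), and 192 of 230 for CHIR+SB (83.5%). TCTCGCGA stood in a window of 94 of the 115 RPMI genes, or 81.7% (73.5 to 88.3). It stood in 128 of the 211 CHIR genes, or 60.7% (53.7 to 67.3), and in 104 of the 192 CHIR+SB genes, or 54.2% (46.8 to 61.4). Among all 15842 protein-coding genes with a window in the table, 323 held it (2.04%). These windows cover 79.0% of protein-coding genes. The full 10-letter palindrome was held by 49.6% of RPMI genes, 32.2% of CHIR genes and 28.6% of CHIR+SB genes, beside 0.726% of all genes.

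Counted the other way, 145 of the 323 genes that hold the word had a promoter peak in at least 1 list (44.9%, 39.4 to 50.5), and 70 had one in every list (21.7%). By list the share was 29.1% for RPMI, 39.6% for CHIR and 32.2% for CHIR+SB. Of the 15519 genes without the word, 0.135%, 0.535% and 0.567% had a promoter peak in the same order. Most genes that hold the word therefore had no promoter peak in any one list.

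The word was more frequent at the highest peaks of CHIR and CHIR+SB than at the lowest. Signal here is the normalized β-catenin read count of a peak as the authors deposited it. Of the 20 highest RPMI promoter peaks with a window, 19 had the word, and the exception was ASXL1, a chromatin regulator of the Polycomb system. The same count was 18 of 20 in CHIR and 18 of 20 in CHIR+SB. With CHIR promoter peaks split into quartiles by signal, the word stood in 42.6% of genes in the lowest quartile (29.2 to 56.8), 47.1% in the next, 67.9% in the third and 83.3% in the highest (70.7 to 92.1). CHIR+SB gave 34.7%, 38.3%, 56.5% and 81.1% in that order. RPMI differed less, with 73.1% in the lowest quartile (52.2 to 88.4), 78.8% in the next and 96.6% in the highest (82.2 to 99.9), and these intervals overlap. The quartile below the highest gave 77.8% with a window for 79.4% of genes, and is void. The full palindrome stood in 51.7% of RPMI genes in the highest quartile (32.5 to 70.6) and 45.5% in the second (28.1 to 63.6). The median signal of CHIR peaks was 18.2 with the word (128 peaks) and 11.5 without it (84 peaks). In CHIR+SB the medians were 18.0 and 10.7, and in RPMI 15.4 and 12.8. Peaks with the word were also wider in each list. Their median width was 498 bp beside 355.5 bp in CHIR, 494.5 beside 289.5 bp in CHIR+SB, and 388 beside 283 bp in RPMI. A wider peak collects more reads, and signal per kb was not compared between these groups. The ratio of β-catenin to IgG signal differed less, with medians of 4.17 and 3.95 in CHIR, 3.79 and 3.57 in CHIR+SB, and 3.84 and 4.65 in RPMI, where peaks without the word had the higher value.

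Peaks at promoters with the word covered the start site more often in CHIR and CHIR+SB. In CHIR+SB 82.7% of peaks with the word covered the start site (74.0 to 89.4) against 39.4% of those without (29.4 to 49.98), and their median distances were 50.5 and 253.5 bp. In CHIR the shares were 78.1% (70.0 to 84.9) and 47.6% (36.6 to 58.8). In RPMI they were 85.3% (76.5 to 91.7) and 71.4% (47.8 to 88.7), with intervals that overlap. Within the windows of RPMI genes the word occurred 198 times, and 184 of these lay before the start site, with a median of 51.5 bases upstream. Of the 104 RPMI windows with the word, 74 held it more than once, counting overlapping copies on either strand. A full palindrome alone counts more than once here, also in the total of 198, and 64 RPMI windows held the palindrome. The 74 is therefore not a count of windows with separate copies.

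**Figure D1:**
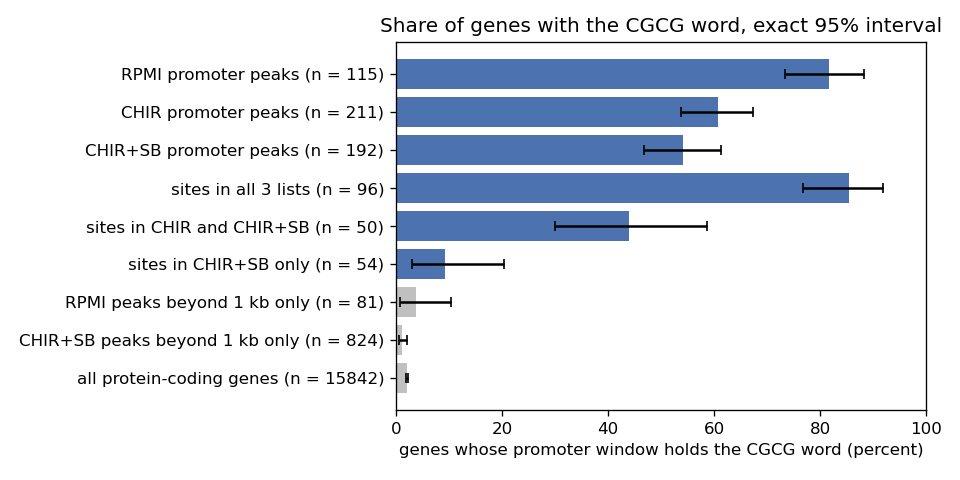
The horizontal axis gives the percentage of genes whose 300-base promoter window holds TCTCGCGA, with exact 95% intervals; blue bars are sets of promoter peaks and grey bars are genes with peaks only beyond 1 kb and all protein-coding genes with a window. The RPMI bar stands at 81.7%, sites in all 3 lists at 85.4%, sites in CHIR+SB only at 9.26%, and all genes at 2.04%. For genes with peaks only beyond 1 kb the windows lie at the start sites and not at the peaks.

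Other searched words were close to their frequency in all promoters or differed by far less. The TCF/LEF core CTTTGA stood in 14.8% of RPMI genes, 16.6% of CHIR genes and 15.1% of CHIR+SB genes, beside 14.1% of all genes. Its longer form CTTTGAT gave 2.61%, 3.32% and 4.69% beside 2.61%. No window was found for AXIN2, CDX1, CCND1, NKD1 and FGF8, so these counts leave them out. Of the Wnt and streak genes with a promoter peak and a window, SP5, AMOTL2, HAND1 and TBXT held CTTTGA. EVX1 and WNT5B did not. Windows lie at start sites, so the shares do not show whether CTTTGA stood under the peaks themselves. The ETS word CCGGAAG gave 27.0%, 25.6% and 24.0% beside 16.5%, and the YY1 word AAGATGGCG 7.83%, 6.16% and 4.69% beside 3.21%. The GC box GGGCGG of SP/KLF factors gave 70.4%, 74.9% and 74.5% beside 64.3%. The CCAAT box of NFY gave 33.9%, 40.3% and 37.5% beside 42.1%. TATAAA stood in 6.09%, 9.95% and 12.0% beside 12.4%, and ACTACAA, a ZNF143 word, in 3.48%, 6.16% and 7.81% beside 3.81%. The E-box CACGTG gave 9.57%, 11.8% and 13.5% beside 10.9%. GCGCATGCG (NRF1) gave 3.48%, 2.84% and 3.13% beside 3.11%, and TGACGTCA (CRE) 1.74%, 2.37% and 3.65% beside 3.00%. The octamer ATGCAAAT of OCT4 gave 0.870%, 1.90% and 2.08% beside 2.22%, and the T-box word TCACACCT was not found in any of the 3 gene sets, beside 1.24% of all genes. Base composition was similar to that of all promoters. The median GC content was 63.3%, 63.7% and 62.5% beside 62.3%, and the median number of CpG pairs per window was 26, 25.5 and 24 beside 21.5.

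Promoter peaks made up 55.0% of the RPMI list (48.7 to 61.2), 26.6% of the CHIR list (23.9 to 29.4) and 14.5% of the CHIR+SB list (12.9 to 16.2). They held 4083, 12876 and 7517 β-catenin reads, or 65.1%, 32.7% and 19.3% of the reads in the peaks of each list. IgG reads over these peaks numbered 844, 1512 and 2679. The lists therefore differed much more in peaks away from promoters, which numbered 117, 773 and 1551. By the authors' scaling factors the β-catenin libraries had relative depths of 1, 1.67 and 1.14 for RPMI, CHIR and CHIR+SB, and the IgG libraries 1, 0.976 and 1.75. The lowest signal listed also differed. Above the highest of these list minima, 9.61, the promoter share was 29.8% in CHIR and 22.0% in CHIR+SB, with 221 and 192 promoter peaks, and the order of the 3 shares was unchanged.

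Within each list promoter peaks had a higher median signal than peaks elsewhere. Their median signal was 15.4, 14.2 and 12.9 in the order RPMI, CHIR and CHIR+SB, beside 10.3, 11.5 and 9.56 for peaks beyond 1 kb. The median width was 368, 424 and 359 bp, beside 200, 348 and 246 bp beyond 1 kb. Per kb of peak the summed signal was 47.9, 41.6 and 42.1 at promoters, beside 50.1, 36.4 and 38.6 beyond 1 kb. In RPMI the order thus turned with the measure. Summed over all promoter peaks, β-catenin signal was 4.50 times the IgG signal in RPMI (4.18 to 4.85), 4.63 times in CHIR (4.39 to 4.89) and 4.01 times in CHIR+SB (3.84 to 4.19). The median of the per-peak ratio was lower at promoters than beyond 1 kb in each list: 4.09 and 4.65 in RPMI, 4.13 and 4.81 in CHIR, and 3.74 and 4.29 in CHIR+SB. IgG reads were 12.7 per kb of promoter peak in CHIR and 10.2 per kb of the other CHIR peaks. In CHIR+SB they were 26.7 and 21.8, and in RPMI 15.5 and 16.1. The part of this IgG signal in the results was not tested.

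Most promoter peaks lay close to the start site, far inside the limit that defined them. The median distance was 65 bp in RPMI, 100.5 bp in CHIR and 101 bp in CHIR+SB, and 126, 213 and 189 peaks lay within 250 bp. The peak itself covered the start site in 115 of 143 RPMI peaks (80.4%, 73.0 to 86.6), 183 of 280 CHIR peaks (65.4%, 59.5 to 70.9) and 159 of 262 CHIR+SB peaks (60.7%, 54.5 to 66.6). Centres were more often upstream than within the gene, 87 against 56 in RPMI, 167 against 113 in CHIR, and 166 against 95 in the CHIR+SB list by the authors' label, and 1 CHIR+SB peak was labelled downstream. More than 1 promoter peak was assigned to DENR in RPMI, to AXIN2 and REST in CHIR, and to AMOTL2, ASXL1, GSTO1, MYF6, PPCDC, RBM39 and YOD1 in CHIR+SB. Few peaks lay near the limit. The nearest inside were at DLGAP1-AS1 (991 bp) and PHF12 (893 bp) in RPMI, FGF8 (944 bp) and LOC283731 (927 bp) in CHIR, and AMOTL2 (987 bp) and ETV5 (976 bp) in CHIR+SB. The nearest outside were at ZCCHC14 (1199 bp) and KSR2 (1243 bp) in RPMI, ETV5 (1054 bp) and LINC00229 (1090 bp) in CHIR, and CCDC169 (1010 bp) and PHF12 (1033 bp) in CHIR+SB. FGF8, PHF12 and ETV5 thus fell on either side of the limit in different lists.

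**Figure D2:**
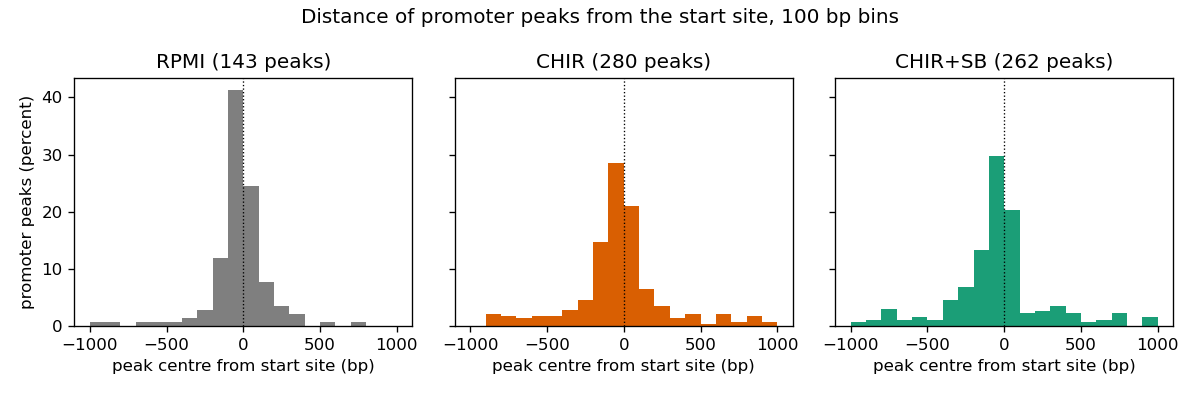
Each panel gives the percentage of a list's promoter peaks (vertical axis) by the signed distance in bp of the peak centre from the start site (horizontal axis, negative upstream), in bins of 100 bp. The bins next to the start site are the tallest in each list, and 126 of 143 RPMI peaks lie within 250 bp.

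Promoter peaks of the 3 lists were merged into 364 sites where they shared at least 1 bp, and a site counted as present in a list when any peak of that list overlapped it. Of these sites 113 had a peak in all 3 lists, 67 in CHIR and CHIR+SB but not RPMI, 19 in RPMI and CHIR, and 4 in RPMI and CHIR+SB (POLDIP3, RAB25, WDR6 and TGOLN2). CHIR alone had 78, CHIR+SB alone 77, and RPMI alone 6. Of the RPMI promoter peaks, 133 of 143 overlapped a CHIR peak (93.0%, 87.5 to 96.6), while 118 met one of CHIR+SB (82.5%, 75.3 to 88.4). For RPMI peaks beyond 1 kb the shares were 41.0% (32.0 to 50.5) and 35.9% (27.2 to 45.3). A CHIR+SB peak was met by 182 of 280 CHIR promoter peaks (65.0%, 59.1 to 70.6). In turn 180 of 262 CHIR+SB promoter peaks met a CHIR peak (68.7%, 62.7 to 74.3). At least 1 list had a promoter peak for 368 genes, and every list for 104.

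Overlap followed signal. In the highest signal quartile 67 of 70 CHIR promoter peaks met a CHIR+SB peak, and in the lowest quartile 20 of 70. Against RPMI the numbers were 60 of 70 and 11 of 70. CHIR peaks at sites in all 3 lists had a median signal of 21.3, a median distance of 62.8 bp and covered the start site in 87.7% of cases. At sites in CHIR and CHIR+SB the values were 14.2, 129 bp and 58.0%, and at CHIR-only sites 9.60, 193 bp and 38.5%. CHIR+SB-only peaks had a median signal of 9.56, a median distance of 247 bp and covered the start site in 33.8% of cases. Peaks found in 1 list were thus mostly near the lowest signal listed: 37 of 78 CHIR-only and 35 of 77 CHIR+SB-only peaks reached 9.61. Sharing was also lower with a stricter rule. When the overlap had to reach 50% of both peaks, 68.5% of RPMI promoter peaks met a peak in CHIR and 62.9% met one in CHIR+SB.

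The CGCG word followed the same division. It stood in 82 of 96 genes at sites in all 3 lists (85.4%, 76.7 to 91.8), 11 of 16 at RPMI and CHIR sites (68.8%, 41.3 to 89.0), 22 of 50 at CHIR and CHIR+SB sites (44.0%, 30.0 to 58.7) and 5 of 54 at CHIR+SB-only sites (9.26%, 3.08 to 20.3). At CHIR-only sites 19 of 55 genes had it (34.5%, 22.2 to 48.6), but a window was found for 79.7% of those genes, under the 80% set for this check, which is therefore void there. Genes whose peaks all lay beyond 1 kb had the word in 3.70% of cases in RPMI (0.770 to 10.4) and 1.09% in CHIR+SB (0.501 to 2.07), close to all genes. In CHIR it was 1.73% (0.699 to 3.54), with a window for 79.2% of genes, so that check is void too. The windows searched for these genes lie at their start sites, not at the peaks. These shares therefore do not describe the sequence under peaks beyond 1 kb. Head-to-head placement, with another protein-coding gene starting within 1 kb, was found for 22.9% of genes at sites in all 3 lists (15.0 to 32.6) beside 12.3% of all genes. It did not follow this division clearly. It was found for 10 of 50 genes at CHIR and CHIR+SB sites and 7 of 54 at CHIR+SB-only sites. Both intervals overlap that of the sites in all 3 lists.

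**Figure D3:**
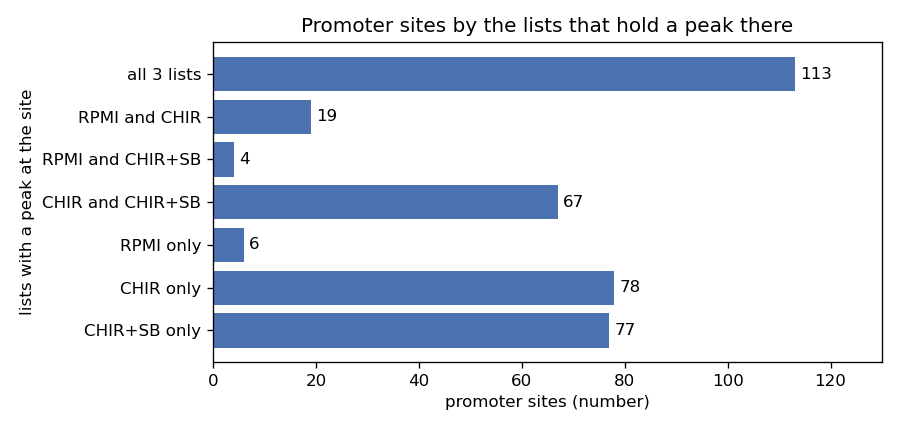
Bars give the number of promoter sites (horizontal axis) for each combination of lists with a peak at the site (vertical axis). The 113 sites in all 3 lists form the longest bar, and 6 sites have a peak in RPMI only.

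The highest promoter peaks are described first by gene. RBM39, a splicing coactivator, led every list, with 115 reads in RPMI, 234 in CHIR, and 124 for CHIR+SB, or a signal of 73.7, 89.9 and 69.8. IgG reads there were 15, 16 and 19. The RPMI peak lay at chr20:34329882-34330714 (hg19) and covered the start site, and CHIR+SB had a second, lower peak of 50 reads beside it. CDK12 had 85, 136 and 107 reads and a signal of 54.5, 52.2 and 60.2, with its RPMI peak at chr17:37617273-37618021 (hg19). ERCC6L2 had 83, 185 and 123 reads and a signal of 53.2, 71.0 and 69.2, with its RPMI peak at chr9:98637535-98638223 (hg19). The 3 genes were thus high in every condition, including the one without inhibitor. DENR, a translation reinitiation factor, had 2 RPMI promoter peaks of 42 and 41 reads and 1 peak in each other list, with 156 reads in CHIR and 104 in CHIR+SB. ASXL1 had a signal of 38.5 in RPMI and 59.1 in CHIR, and 2 separate peaks of 25.9 and 24.8 in CHIR+SB. PRDX1, a peroxide-reducing enzyme, gave 39.7, 31.1 and 34.3, and RNF167, a ubiquitin ligase, 39.7, 36.9 and 38.8. QRICH1, CDC5L, ARF3, BTBD10 and RPL10A were also among the leading peaks, with RPMI signals of 30.8 to 35.9. In CHIR the 10 highest also held MAP2K2, the kinase MEK2 of the ERK pathway, with a signal of 38.8 beside 30.1 in RPMI and 29.8 in CHIR+SB. In CHIR+SB they held SP5 and AXIN2, which had no promoter peak in RPMI.

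Promoter peaks were then counted in gene families of RNA and protein production. Among the 20052 protein-coding genes in the RefSeq table, 0.663% had a promoter peak in RPMI, 1.26% had one in CHIR and 1.15% had one in CHIR+SB. Of 86 cytoplasmic ribosomal protein genes, 10 had one in RPMI (11.6%), 10 in CHIR (11.6%), and 8 for CHIR+SB (9.30%). RPL10A, RPL26, RPL27A and RPS19 were among those with one in every list. RPS19, a protein of the small ribosomal subunit, had a signal of 28.2, 32.6 and 24.8. RPL12 had 32.7 in RPMI and 31.5 in CHIR, and the CHIR+SB peak at the same place, with 32.6, was assigned to the neighbouring gene LRSAM1. The RPL7A site also had a peak in every list, with the CHIR+SB peak assigned to MED22. At the RPL17 site the CHIR and CHIR+SB peaks were assigned to RPL17-C18orf32. The counts are by assigned gene name, so they miss these sites, and the lower CHIR+SB count is not read as a loss. Of 53 SR and hnRNP splicing genes 4, 5 and 4 had a promoter peak, with CDC5L, LUC7L2 and RBM39 in every list. LUC7L2, a U1-associated splicing factor, had a signal of 23.7, 31.5 and 29.3. The same 3 of 43 transcription kinase and chromatin genes had one in every list: ASXL1, CDK12 and MED1, a Mediator subunit, with a signal of 15.4, 23.0 and 19.1.

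Other families of these and related functions were counted too. Of 77 mitochondrial ribosomal protein genes only MRPS15 had a promoter peak, in CHIR+SB (1.30%). Of 71 translation initiation and elongation factors only EIF5 had one (1.41%), in every list (signal 17.9, 22.7 and 22.5). None of 92 histone genes and none of 29 housekeeping reference genes had one in any list. At the shares of all genes, 0.663%, 1.26% and 1.15%, sets of these sizes would hold few or none. These 4 counts are therefore not a result about the families. Of 40 proteasome subunits 1, 1 and 3 had one (2.5%, 2.5% and 7.5%), PSMD5 in every list with 22.4, 33.4 and 31.5. Of 518 genes named ZNF, 4 had one in RPMI (0.772%), 10 in CHIR (1.93%), and 8 for CHIR+SB (1.54%), shares near those of all genes. ZNF655 was the highest of them in each list, with 16.0, 20.7 and 20.8. BANP itself had a promoter peak in every list, with 25, 72 and 49 reads and a signal of 16.0, 27.6 and 27.6, and its promoter window held TCTCGCGA.

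Wnt pathway genes had promoter peaks with CHIR and with CHIR+SB and none in RPMI. Their list and that of the primitive streak were drawn up with earlier results of these data known, so the direction of their counts is not independent evidence. Of 40 Wnt pathway genes and targets 6 had a promoter peak in CHIR (15.0%) and 7 in CHIR+SB (17.5%), beside 1.26% and 1.15% of all protein-coding genes. In RPMI, where the share of all genes was 0.663%, a set of 40 would hold few or none. AXIN2, the scaffold that returns β-catenin to degradation, had 3 CHIR promoter peaks of 67, 61 and 32 reads. In CHIR+SB 1 wide peak of 1440 bp at chr17:63556640-63558080 (hg19) held 81 reads, beside 32 IgG reads. SP5, a zinc finger repressor induced by Wnt, had 85 reads both in CHIR and in CHIR+SB, with 7 IgG reads in CHIR and 27 in CHIR+SB. NKD1, an inhibitor of Dishevelled, had 25 and 15 reads, with centres 815 and 720 bp upstream. CCND1, cyclin D1, had 33 and 34 reads over its start site, and AMOTL2, a regulator of the Hippo pathway listed here as a Wnt target, had 45 reads in CHIR and 2 peaks of 18 reads in CHIR+SB. WNT5B, a Wnt ligand, had a promoter peak of 15 reads in CHIR+SB alone.

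Primitive streak genes gave 6 of 34 in CHIR (17.6%) and 2 of 34 in CHIR+SB (5.88%), beside 1.26% and 1.15% of all protein-coding genes. CDX1, a posterior homeobox gene, had 74 reads in CHIR and 34 in CHIR+SB, a signal of 28.4 and 19.1, and SP5 is on this list too. TBXT, the T-box factor brachyury, had a CHIR peak of 28 reads centred 757 bp inside the gene. EVX1, a homeobox gene of the posterior streak, and HAND1, a mesoderm transcription factor, had CHIR peaks of 20 reads, the lowest count listed in CHIR. FGF8, a growth factor of the streak, had a CHIR peak of 45 reads, and the CHIR+SB peak that overlapped it, with 29 reads, was centred 1193 bp from the start site and so lay outside the limit. Of 24 Nodal and SMAD2/3 genes only CRIPTO, the Nodal co-receptor, had promoter peaks (4.17% in CHIR and in CHIR+SB). They had 33 reads in CHIR and 18 in CHIR+SB. Of 25 pluripotency genes OTX2 had 32 and 16 reads, and VRTN had 26 in CHIR alone (8% of the genes in CHIR and 4% in CHIR+SB). Of 39 HOX genes HOXD3 had 23 reads in CHIR alone (2.56%). At the shares of all genes, sets of these sizes would hold few or none. The Nodal, pluripotency and HOX counts are therefore not read as a result about these lists. A promoter peak missing in CHIR+SB can be a peak below its threshold, since 17 reads was the median there for peaks found in that list alone.

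**Figure D4:**
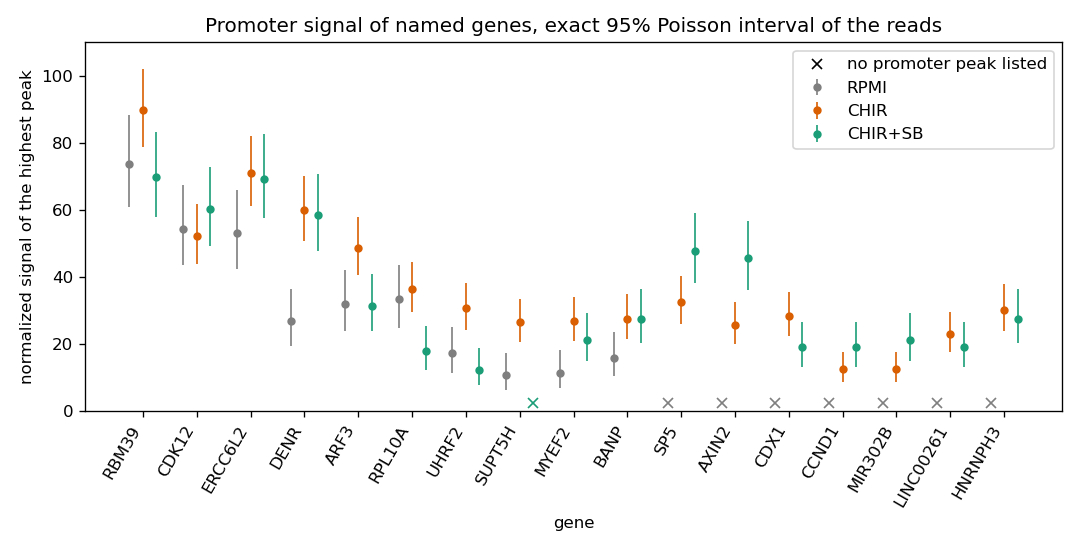
Points give the normalized signal of the highest promoter peak of each named gene (horizontal axis) in RPMI, CHIR and CHIR+SB, with exact 95% Poisson intervals of the reads; a cross marks a list with no promoter peak for that gene and its height has no meaning. RBM39, CDK12 and ERCC6L2 are high in each list, while the 7 genes at the right have no promoter peak in RPMI.

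Among promoters new with CHIR, the highest without any overlapping RPMI peak were SP5 (32.6), HNRNPH3 (30.3), CDX1 (28.4) and LINC01101 (26.1), followed by AXIN2. HNRNPH3 had 79 reads in CHIR and 49 in CHIR+SB, and its promoter, printed above, held the CGCG palindrome. CTTTGA also stood in a 300-base window of this gene, outside the stretch printed. Next came SCAMP5 (23.4), a secretory carrier membrane protein, and LINC00261 (23.0), the noncoding gene beside FOXA2. LINC00261 had 60 reads in CHIR and 34 in CHIR+SB. The highest CHIR-only sites were MBTPS1 and NFE2 with 49 reads each, NKX6-1 with 43 and ZNF850 with 40. MBTPS1 is a protease that releases membrane-bound transcription factors, NFE2 a blood cell transcription factor and NKX6-1 a homeobox gene of pancreas and neural tube. The MBTPS1 and ZNF850 windows held the CGCG word, and that of NKX6-1 held CTTTGA. The highest CHIR+SB-only sites had fewer reads: GSTO1, a glutathione transferase, 29, SNX5, a retromer sorting nexin, 26, and MRPS15 25. RPMI-only sites were LAMP1, a lysosomal membrane protein, with 28 reads, SRRT with 22, and AHCTF1, DLGAP1-AS1, RPS15 and SRP19 with 15 each, the lowest count listed in RPMI.

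Signal was compared where promoter peaks of 2 lists overlapped one-to-one. CHIR over RPMI gave 130 pairs with a median ratio of 1.21, higher in 96 and lower in 34, and a ratio of summed signal of 1.21 (1.17 to 1.26). CHIR peaks were wider there, with a median width ratio of 1.36. Per kb of peak the median ratio was 0.902 and that of the sums 0.929, so the direction turned with the measure. The interval of the ratio lay above 1 at 17 of 130 promoter pairs (13.1%) and below 1 at none. Over all 174 one-to-one peaks, which include these 130, the shares were 16.1% above and 0.575% below. Of the 44 pairs beyond 1 kb, 11 lay above 1 and 1 below.

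SUPT5H, a subunit of the elongation factor DSIF, had the highest ratio, with 17 reads in RPMI and 69 in CHIR (2.43, 1.42 to 4.41). Its CHIR peak was 648 bp wide and its RPMI peak 178 bp, and per kb the ratio was 0.668. MYEF2, an RNA-binding repressor, had 18 and 70 reads (2.33, 1.37 to 4.16), and 1.19 per kb. MAU2, the cohesin loader subunit, had 19 and 66 reads (2.08, 1.23 to 3.67), and LSM3, a U6 snRNA-binding protein, 22 and 76 (2.07, 1.27 to 3.50). Per kb both lay under 1, at 0.956 and 0.976. MAP10 (2.02), NOL11 (1.95), SKA3 (1.90) and RBM15-AS1 (1.88) followed. Per kb MAP10 turned to 0.387 and NOL11 to 0.873, while SKA3 had 1.51 and RBM15-AS1 1.05. Among the leading peaks ASXL1 had 1.54 (1.13 to 2.11), ARF3 1.52 (1.09 to 2.16) and ERCC6L2 1.34 (1.03 to 1.75), and per kb these stayed above 1 at 1.39, 1.12 and 1.06. The ratio of CHIR to RPMI had a median of 1.19 at 86 promoters with the CGCG word and 1.29 at 19 without it. Per kb the order turned, with medians of 0.931 and 0.777.

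With SB431542 added to CHIR99021 the signal at shared promoters was lower on the whole-peak scale. CHIR+SB over CHIR gave 170 pairs with a median ratio of 0.873, higher in 55 and lower in 115, and a ratio of sums of 0.899 (0.869 to 0.929). At 469 one-to-one peaks beyond 1 kb the ratio of sums was 1.06 (1.04 to 1.09). Per kb the promoter ratio of sums was 0.994, and with IgG signal subtracted it was 0.855. Intervals lay below 1 at 13 promoter pairs (7.65%) and above 1 at 6 (3.53%). With no correction for the number of pairs, some exclude 1 through counting error alone. Whether the 13 or the 6 exceed that number was not tested. Over all 642 one-to-one peaks, which include the promoter pairs, the shares were 4.21% below and 6.7% above. Of the 469 pairs beyond 1 kb, 13 lay below 1 and 37 above.

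UHRF2, a ubiquitin ligase that reads methylated DNA, had the lowest ratio with 80 reads in CHIR and 22 in CHIR+SB (0.40, 0.24 to 0.65). In RPMI it had 27 reads, a signal of 17.3 beside 30.7 and 12.4. UPF3A, a factor of nonsense-mediated decay, had 52 and 16 reads (0.45, 0.24 to 0.80), and LRRC28 had 78 and 25 (0.47, 0.29 to 0.75). RPL10A, a protein of the large ribosomal subunit, had 95 and 32 (0.49, 0.32 to 0.74). It was low in CHIR+SB also against RPMI, where it had 52 reads (0.54, 0.34 to 0.86). WDR77, BDNF-AS, LINC01101 and PTPN4 lay between 0.51 and 0.54. Several of these turned per kb of peak, where BDNF-AS had 1.92, PTPN4 1.42, UPF3A 1.32 and LINC01101 1.19. UHRF2 (0.671), RPL10A (0.732), WDR77 (0.921) and LRRC28 (0.973) stayed below 1 per kb. Higher in CHIR+SB were the peak between DHFR2 and NSUN3 with 23 and 38 reads (2.42, 1.41 to 4.26), ANP32B, a histone chaperone, with 29 and 40 (2.02, 1.22 to 3.38), and ECHS1, an enzyme of fatty acid oxidation, with 28 and 34 (1.78, 1.05 to 3.04). The others were MIR302B (1.69), AKIRIN1 (1.55) and SP5 (1.46, 1.07 to 2.003). At SP5 the CHIR+SB peak was 984 bp wide beside 712 bp, and per kb the ratio was 1.06. AKIRIN1 had 1.08 per kb, while ANP32B (0.994), ECHS1 (0.938), NSUN3 (0.880) and MIR302B (0.777) lay under 1.

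CHIR+SB over RPMI gave 113 pairs with a median ratio of 1.07 and a ratio of sums of 1.07 (1.02 to 1.12), and the median per kb was 0.882. Intervals lay above 1 at 5 pairs (4.42%) and below 1 at 4 (3.54%). They were not corrected for the number of pairs, so some exclude 1 through counting error alone. Whether these 5 and 4 pairs exceed that number was not tested, so the genes named below are a description. Over all 152 one-to-one peaks, which include the promoter pairs, the shares were 8.55% and 2.63%. Of the 38 pairs beyond 1 kb, 8 lay above 1 and none below. The 5 promoter pairs above 1 were NSUN3 (2.22), MDH2 (2.06), MYEF2 (1.85), IREB2 (1.82) and BANP (1.72). The 4 below were WDR77 (0.45), SPAG16 (0.52), RPL10A (0.54) and COPB2 (0.56). Per kb NSUN3 (0.495), MDH2 (0.854) and BANP (0.928) turned below 1 and SPAG16 above it (2.46), while MYEF2, IREB2, WDR77, RPL10A and COPB2 kept their side. These 3 comparisons share libraries pairwise, so their ratios are not independent of each other. The order of promoters was alike in the lists. The Spearman correlation of signal across promoter pairs was 0.749 for CHIR and RPMI, 0.733 for CHIR+SB and CHIR, and 0.660 for CHIR+SB and RPMI. These values are given as a description, since the pairs share libraries and peak widths.

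**Figure D5:**
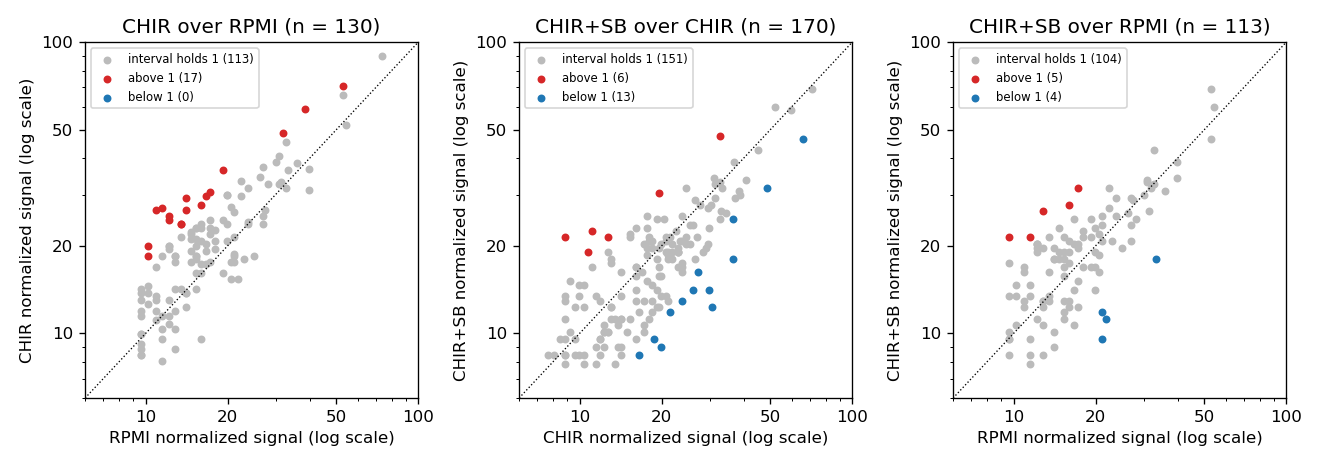
Each point is 1 pair of promoter peaks that overlap one-to-one, with the normalized signal in both lists on log axes; the dotted line marks equal signal, and red or blue points have a ratio interval above or below 1. In CHIR over RPMI 17 of 130 points are red and none is blue, and in CHIR+SB over CHIR 6 are red and 13 blue.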

How the data were processed

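ChIP-seq was done with an antibody to β-catenin in 3 libraries and with goat IgG in 3, 1 of each per condition. Bowtie and the builds hg19 and mm9 are named in the submitters' processing notes, and the gene positions in the lists are those of hg19. The sources used here do not give the peak caller, its threshold or the library totals. Per the file headers, each deposited peak carries read counts for β-catenin and IgG, both counts in normalized form (a signal), their ratio and a distance to the TSS. The deposited signal equals the count times 1 factor per library, from which relative depth was taken. A ratio with no IgG read is entered as 10000. Counts cover the bounds of the peak in its own list, so a wider peak collects more reads.

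Peaks overlapped when they shared at least 1 bp. Shares have exact Clopper-Pearson intervals, and signal ratios have exact intervals from the split of reads between 2 libraries. The ratio intervals are not corrected for the number of pairs. Words were searched on both strands of RefSeq windows (GRCh38.p14) matched by symbol, in any window of a gene, and windows are not the peaks themselves. Gene lists covered ribosomal, splicing, transcription, translation, proteasome, histone, housekeeping, ZNF, Wnt, streak, Nodal, pluripotency and HOX genes. Named genes were the 10 highest promoter peaks per list, the highest found in some lists only (10, 10 and 5), up to 8 ratios on each side whose interval excludes 1, up to 6 members per gene list, the 2 peaks nearest to the limit on each side, and genes with 2 or more promoter peaks in a list. Members, lists and words were chosen with earlier results of these data known. One gene that the rule covers is not reported here. Names not covered by this rule were chosen after their values were seen. Overlap, interval and word searches were tested on simulated data. Python 3.11.15, pandas 2.3.3 and SciPy 1.17.1 were used.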

Additional observations from a re-analysis of the deposited data

How the results depend on the processing

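Of 48 recomputed values, 24 stayed within the interval of the reported value, or within 1.5 times for counts of peaks. The counts of promoter peaks stayed within 1.5 times with limits of 500 and 2000 bp and above a common signal minimum of 9.61. With 500 bp the promoter share was 23.2% in CHIR and 12.5% in CHIR+SB, and 52.0% of CHIR+SB promoter peaks met an RPMI peak. Above the common minimum the shares were 29.8% and 22.0%. There 87.4% of RPMI promoter peaks met a CHIR peak, 56.6% of CHIR peaks an RPMI peak, 56.8% of CHIR+SB peaks an RPMI peak and 76.0% of CHIR+SB peaks a CHIR peak. With an overlap of 50% of both peaks, RPMI peaks met CHIR in 68.5% and CHIR+SB in 62.9%, CHIR peaks met RPMI in 35.0% and CHIR+SB in 49.6%, and CHIR+SB peaks met RPMI in 34.0% and CHIR in 52.7%. Per kb of peak the ratio of summed signal turned to 0.929 for CHIR over RPMI and 0.910 for CHIR+SB over RPMI, and was 0.994 for CHIR+SB over CHIR, where subtracting IgG gave 0.855. CHIR and CHIR+SB peaks were wider than their RPMI partners, which lowers a ratio per kb. With peaks within 250 bp the CGCG word stood in 71.7% of CHIR genes and 69.0% of CHIR+SB genes. Counting every window, chosen after seeing the data, gave 65.4%, 44.2% and 39.4% for RPMI, CHIR and CHIR+SB.

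No paired analysis was possible because each condition has 1 library and the labels give no replicate numbers. Depth limits the lists: a promoter peak missing in 1 list can lie below its threshold, and the lists hold no counts at places without a peak. IgG depth differed between conditions, 1.75 times that of RPMI in CHIR+SB, and its part in the peak calls was not tested.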

Other observations

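Noncoding genes also had promoter peaks, with 8 long noncoding RNA genes in RPMI, 19 in CHIR, and 17 for CHIR+SB. DNAJC27-AS1, RBM15-AS1 and TMEM44-AS1 had one in every list. RBM15-AS1, antisense to a splicing regulator gene, had 22, 69 and 32 reads, and TMEM44-AS1 had 24, 60 and 30. LINC01101, BDNF-AS and PRKG1-AS1 had promoter peaks in CHIR and CHIR+SB and none in RPMI. LINC01101 had 68 and 25 reads, BDNF-AS 43 and 15, and PRKG1-AS1 42 and 30. A peak at such a start site cannot be told apart from one at the coding gene on the other strand, since ChIP-seq reads carry no strand of transcription.

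Among microRNA genes MIR302B had promoter peaks of 33 reads in CHIR and 38 in CHIR+SB, and none in RPMI, 449 and 319 bp upstream. It belongs to the miR-302/367 cluster, which is known for its high level in pluripotent stem cells, and its 3p form shares a seed with the 3p forms of the other miR-302 members. The 3p forms are shown with the seed, bases 2 to 8, in capitals, from RefSeq, build GRCh38.p14.
hsa-miR-302a-3p: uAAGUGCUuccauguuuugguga
hsa-miR-302b-3p: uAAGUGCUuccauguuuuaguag
hsa-miR-302c-3p: uAAGUGCUuccauguuucagugg
hsa-miR-302d-3p: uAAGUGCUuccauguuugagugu
hsa-miR-367-3p: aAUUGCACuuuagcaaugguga
The 4 miR-302 forms shown have the same seed and miR-367-3p has another. MIR135B had promoter peaks of 42 reads in CHIR and 25 in CHIR+SB, and MIR4523 had them in every list with 17, 44 and 29 reads.

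Every 8-letter word was also counted in the promoter windows, a count chosen after seeing the data. TCTCGCGA, read on either strand, had the largest difference in percentage points from all windows in each of the 3 lists: 65.4% of RPMI windows, 44.2% of CHIR windows and 39.4% of CHIR+SB windows held it, beside 1.58% of all. The next word in each list, CTCGCGAG, overlaps it. At CHIR+SB-only sites the leading word was CCGCCCTC or its reverse complement, part of a GC box, in 21.3% of windows beside 9.36% of all, and TCTCGCGA stood in 6.67%.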
